A study of Mus musculus with 30 samples.

Results

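Voltage-gated sodium, calcium, potassium and HCN channel genes were followed through the prefrontal cortex of Adnp heterozygous (HT) mice given fluoxetine, lithium or vehicle, and of wild-type (WT) mice given vehicle. The genes were chosen by symbol: Scn genes ending in a or b, Cacna1, Cacna2d and Cacnb1 to Cacnb4, the Kcn families a, b, c, d, f, g, h, q, s and v, and the Hcn genes. Among the 18240 genes measured, 73 symbols matched, and 71 had a mean normalized count of at least 10, the level at which 16824 genes were tested. All 71 enter the counts given here. The 2 that missed the level were Cacna1f (mean 9.48), a retinal calcium channel gene, and Scn10a (8.66), a sodium channel gene of sensory neurons. The 2 nearest above it were Kcnh8 (15.9) and Kcnd3os (24.2). Among the 71, Kcnd3os and Kcnq1ot1 matched by letters and are antisense RNAs rather than channel subunits, so that 69 subunit genes remain. Kcna7, Kcna10, Kcnv2, Scn4a and Scn11a are annotated and were not analysed here.

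The samples were 30 RNA-seq libraries of C57BL/6J mice at postnatal day 40: HT fluoxetine (4 male, 4 female), HT lithium (4 male, 3 female), HT vehicle (3 male, 4 female) and WT vehicle (4 male, 4 female). Fluoxetine inhibits serotonin reuptake, lithium is a mood stabilizer, and Adnp encodes a chromatin regulator with a homeodomain, and mutations of the human gene cause a syndromic form of autism. Both drugs were thus compared with vehicle within HT mice, and drug-treated WT mice were not analysed here. The sources used here do not give drug doses, the length of treatment or the kind of Adnp mutation. The labels number the libraries of a group without saying whether each is a separate mouse, so p-values measure spread among libraries that may be technical.

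Between 23771758 and 34307061 reads per library fell in genes, and all libraries carry the same batch label. Values are normalized counts, that is, reads divided by 1 size factor per library. Adnp itself is covered by the overlapping gene Gm20716, and the summed count of both was 3404 to 3887 in the 22 HT libraries, against 4226 to 4433 in the 8 WT libraries, with no overlap. The count under the symbol Adnp alone was 1886 to 2491 in HT libraries, against 1703 to 2228 in WT libraries. Excitatory neuron markers were abundant in every library (summed count 142259 to 223703). Markers of neighbouring regions differed between libraries. The summed count of 14 striatal medium spiny neuron markers was 10812 to 67066, and that of 9 measured olfactory bulb markers 3154 to 22547. Single markers spanned more: the striatal dopamine receptor Drd2 had 14.6 to 1200 and the bulb transcription factor Eomes 3.43 to 976, and Six3, a striatal transcription factor, was listed at 0 in some libraries. In bulk tissue, fewer cells of a type and less RNA per cell cannot be told apart.

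Voltage-gated channels open when the membrane potential changes. Sodium channels start the action potential, potassium channels end it and set how readily a neuron fires, calcium channels admit the calcium that triggers transmitter release and gene expression, and HCN channels pass a cation current at negative potentials that paces and dampens activity. A pore is made by 1 large alpha subunit in sodium and calcium channels and by 4 subunits in potassium and HCN channels. Beta and alpha2delta subunits do not form the pore and set how much channel reaches the membrane and how it gates. Mutations in many of the human counterparts cause epilepsy or developmental disorders.

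Levels were compared per kilobase of exon, since a long gene collects more reads. They had a median of 299 normalized counts per kb and were lowest for Kcnh8, at 3.48. Above 500 per kb stood 25 of the 71 genes, and below 50 stood 12. Division by exon length changed the order of some genes within a family. In uncorrected counts, the 10 most abundant held 43.4% of all channel counts, and the 71 together made up 0.766% to 0.881% of a library.

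**Figure D1:**
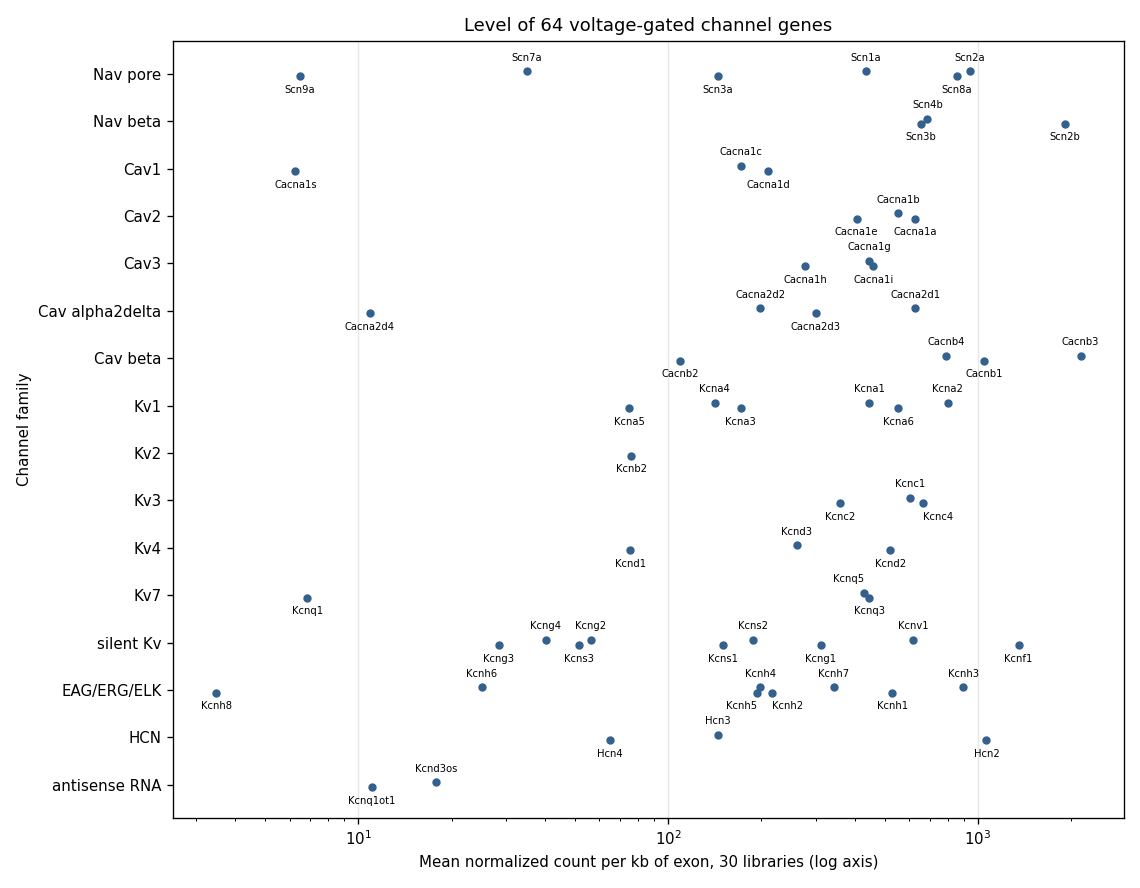
Mean level of 64 of the 71 genes over 30 libraries, in normalized counts per kb of exon on a log axis, with 1 row per channel family and 1 point per gene. Of the genes drawn, Cacnb3, at 2144, is highest, and Kcnh8, at 3.48, is lowest.

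Among the sodium channel pore genes, Scn2a (940 normalized counts per kb) and Scn8a (857) were highest. They encode the main channels of excitatory axons. Scn1a, the sodium channel of fast-spiking interneurons, had 435 per kb, and the embryonic form Scn3a had 145. The pore genes known from other tissues were low: Scn7a (34.9), a sodium sensor of glia, and Scn9a (6.47), of pain neurons. Of the beta subunits, Scn2b had 1903 per kb, Scn4b 687 and Scn3b 653.

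Calcium channel pores of the Cav2 family, which drive transmitter release, had 628 per kb for Cacna1a (P/Q type), 553 for Cacna1b (N type) and 406 for Cacna1e (R type). The low-threshold T-type genes Cacna1i (460) and Cacna1g (446) stood next to each other, above Cacna1h (277). The L-type genes Cacna1d (210) and Cacna1c (172) were lower, and Cacna1s, the skeletal muscle form, had 6.27. In uncorrected counts Cacna1c stood above Cacna1d, with WT vehicle means of 3567 and 2587. Of the intracellular beta subunits Cacnb3 was highest (2144), ahead of Cacnb1 (1045), Cacnb4 (788) and Cacnb2 (109). The alpha2delta subunits, of which Cacna2d1 and Cacna2d2 bind gabapentin, ran from Cacna2d1 (627) over Cacna2d3 (299) and Cacna2d2 (198) to Cacna2d4 (10.9).

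Potassium channels made the longest list. Kcnf1 (1353 per kb) was highest among the silent subunits, which form no channel alone and modify Kv2. Of the Kv7 genes Kcnq3, a subunit of the M-current that muscarinic receptors suppress, had 446 and Kcnq5 had 430. Kcnh3 (898) led the EAG, ERG and ELK family, Kcna2 (798) the axonal Kv1 family, Kcnc4 (665) the Kv3 family of fast repolarization and Kcnd2 (521) the A-type Kv4 family. In uncorrected counts Kcnc1 of Kv3 stood above Kcnc4, with WT vehicle means of 5719 and 2661. Of the HCN genes, Hcn2 had 1065 per kb, Hcn3 145 and Hcn4 64.7.

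Libraries of the same group differed in many channel genes. The median within-group SD was 0.168 on the log2 scale for the 71 genes and 0.134 for all 16824 genes tested. Among genes with a mean of at least 100 it was 0.162 for 64 channel genes and 0.107 for 12584 genes in all. From the lowest to the highest of 30 libraries, the level of 22 channel genes spanned less than 1.5-fold, that of 19 at least 2-fold and that of 5 at least 5-fold. Scn4b (9.44-fold) and Kcna5 (5.31-fold) were among these 5.

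Scn4b, the beta subunit that blocks open channels and is abundant in striatal neurons, had a lowest count of 1685, a median of 2578 and a highest of 10095 in HT fluoxetine libraries. It had 1069, 1774 and 4219 in HT lithium, 1463, 2440 and 6537 in HT vehicle, and 1542, 2879 and 6393 in WT vehicle libraries. The 4 ranges overlapped, with the highest HT lithium library below the highest of every other condition, and HT fluoxetine females 2 and 4 stood apart at 8750 and 10095. The same libraries had the highest levels of Kcna5 (457 and 466), a Kv1 subunit. In the other 28 libraries Kcna5 ran from 87.8 to 418. The striatal marker sum was also highest in HT fluoxetine female 4, at 67066.

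Both genes were higher where striatal markers were higher. Each gene was fitted on 2 scores, the mean log2 level of the striatal and of the bulb markers, within groups, an association added after the data had been seen. No channel gene is in either marker list. Of the 71 genes, 13 (18.3%) were higher with the striatal score and 21 (29.6%) lower at a limma adjusted p under 0.05, where 13.4% and 11.9% of all genes tested were. Kcna5 was 0.62 log2 units higher per unit of score (SE 0.0336, limma adjusted p = 5.56e-15), Scn4b 0.51, Scn9a 0.39 and Cacna2d2 0.34. The 5 lower genes with the smallest p were Scn7a (-0.25), Kcnh7 (-0.15), Cacna2d1 (-0.11), Kcnh3 (-0.10) and Cacnb3 (-0.07). Of 9 silent Kv subunits 5 were lower with this score and 0 higher.

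With the bulb score, 18 of 71 (25.4%) were higher and 31 (43.7%) lower, beside 15.6% of all genes tested in each direction. With the libraries of most bulb marker RNA, HT vehicle female 1 and HT lithium male 4, left out, 16 were higher and 18 lower, and without HT vehicle female 1 alone 17 and 25. Hcn4, the slow HCN subunit that is the pacemaker of the heart, was 0.25 log2 units higher per unit (SE 0.029, limma adjusted p = 3.08e-07). Cacna1s (0.42), Cacna1c (0.14), Kcna4 (0.14) and Kcnd3 (0.10) were also higher, so that all 3 Cav1 genes were called higher. Kcns1 (-0.14), Kcnc4 (-0.12), Kcng2 (-0.12), Scn2b (-0.10) and Kcnq5 (-0.10) were lower, as were 4 of the 7 sodium channel pore genes and 4 of the 5 Kv7 genes. Within groups the 2 scores correlated at -0.55. Taken as covariates, both scores accounted for a median of 53% of the within-group variance of the channel genes and 28% of that of all genes. Among genes with a mean of at least 100 these medians were 53.3% for 64 channel genes and 32.4% for 12584 genes in all. The share was 94.4% for Scn4b, 94.1% for Kcna5, 82.7% for Hcn4 and 75.4% for Cacna1s.

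**Figure D2:**
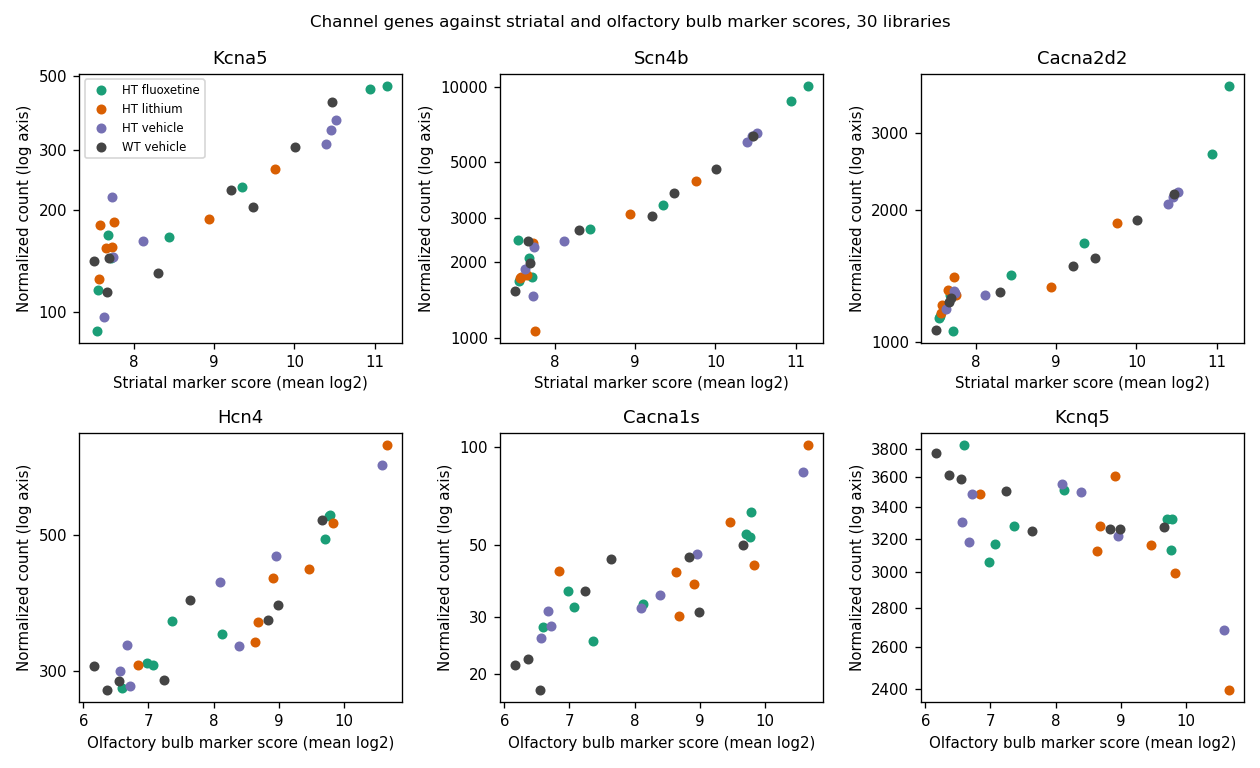
Normalized counts (log axes) of 6 channel genes against the mean log2 level of the striatal (top) or olfactory bulb markers (bottom), with 1 point per library coloured by condition. Kcna5, Scn4b and Cacna2d2 are highest in the 2 HT fluoxetine libraries with most striatal marker RNA, and Hcn4 and Cacna1s climb with the bulb markers while Kcnq5 is lowest in the library with most of them.

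The 250 bases upstream of the RefSeq starts of Kcna5 and Hcn4 are shown because these had the smallest p with each score. Kcna5 lies on the minus strand (chr6:126535556-126535805, GRCm38.p6) and Hcn4 on the plus strand (chr9:58822699-58822948, GRCm38.p6). Capitals mark a GC box, GGGCGG or its reverse complement.
Kcna5: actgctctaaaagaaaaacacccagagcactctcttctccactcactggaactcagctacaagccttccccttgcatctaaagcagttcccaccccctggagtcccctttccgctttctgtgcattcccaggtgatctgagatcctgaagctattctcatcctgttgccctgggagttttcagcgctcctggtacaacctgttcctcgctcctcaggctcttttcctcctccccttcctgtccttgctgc
Hcn4: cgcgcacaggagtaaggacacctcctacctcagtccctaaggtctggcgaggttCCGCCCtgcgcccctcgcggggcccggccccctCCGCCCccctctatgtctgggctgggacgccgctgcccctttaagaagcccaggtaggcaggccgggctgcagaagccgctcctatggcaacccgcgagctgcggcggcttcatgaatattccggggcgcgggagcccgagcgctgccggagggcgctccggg
The Kcna5 window holds 0 GC boxes (53.2% G and C) and the Hcn4 window 2 (71.2%). RefSeq start sites were matched for 47 of the 71 genes, some with several starts. Of their 62 windows, 31 (50%) hold the GC box, against 32.7% of 32851 windows of the same length. The TATA box, TATAAA on either strand, is in 2 of the 62 (3.23%), against 12.4% of all windows, and the cAMP response half-site TGACG in 11 (17.7%), against 17.8%. Matches are letters in a window and were not tested as binding sites.

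The comparison of HT vehicle with WT vehicle mice asks what the mutant allele does to channel transcripts without treatment. At a limma adjusted p under 0.05, the threshold for a call, with p adjusted over all genes tested, 0 of the 71 genes differed, where 0.624% of all genes were called higher and 0.107% lower. An unadjusted p under 0.05 was reached by 1 higher gene and 1 lower (Cacna1a), that is 1.41% each way, beside 4.12% and 2.48% of all genes. When 1 library was left out these counts ran from 0 to 2 higher and 0 to 4 lower, with 0 higher and 4 lower without WT vehicle female 2, and 0 and 3 without HT vehicle female 2. EdgeR and DESeq2 also called 0. The median log2 difference was -0.02 over the channel genes and 0.00 over all genes, with 29 positive and 42 negative.

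On the higher side the smallest p included those of Scn7a (log2 difference 0.20), Cacna1h (0.12), Kcns2 (0.07) and Cacnb2 (0.06), none of them called. On the lower side Cacna1a had 6662, 6945 and 7950 in HT vehicle, against 7091, 7615 and 8264 in WT vehicle libraries (log2 difference -0.11, SE 0.0535, limma adjusted p = 0.749). These ranges overlapped. Kcng1, a silent subunit (-0.22), and Kcnd1, an A-type subunit (-0.11), were also among the genes with the smallest p, with limma adjusted p of 0.91 and 0.87.

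Kcng1 is also the channel gene closest to Adnp. It lies on the minus strand of chromosome 2 at 168260117 to 168281736 (GRCm38), 53 kb from Adnp. Its normalized count was 1030 to 1586 in HT fluoxetine, 671 to 1470 in HT lithium, 1072 to 1538 in HT vehicle and 1205 to 1877 in WT vehicle libraries. Of the 8 WT libraries 5 stood above every one of the 22 HT libraries, and the others overlapped with them. These HT libraries pool fluoxetine, lithium and vehicle, and the share of all genes that separate as far was not determined. In the genotype comparison, without drugs, Kcng1 was not called (limma adjusted p = 0.91).

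The precision of the genotype differences is given by their 95% intervals. For 64 of the 71 genes the interval lay within 1.5-fold in either direction, and for 51 within 1.25-fold, beside 87.5% and 68.8% of all genes tested. Scn2a, for example, was 0.967-fold (0.879 to 1.06) and Hcn2 0.977-fold (0.906 to 1.05) in HT vehicle against WT vehicle mice. The intervals of 7 genes, among them Kcnq1, Cacna2d2, Cacna1s, Kcnh8, Kcna5 and Scn4b, went beyond 1.5-fold. For Scn4b, at 1.12-fold, the interval ran from 0.622 to 2.02. With both marker scores as covariates 60 genes had an interval within 1.25-fold.

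**Figure D3:**
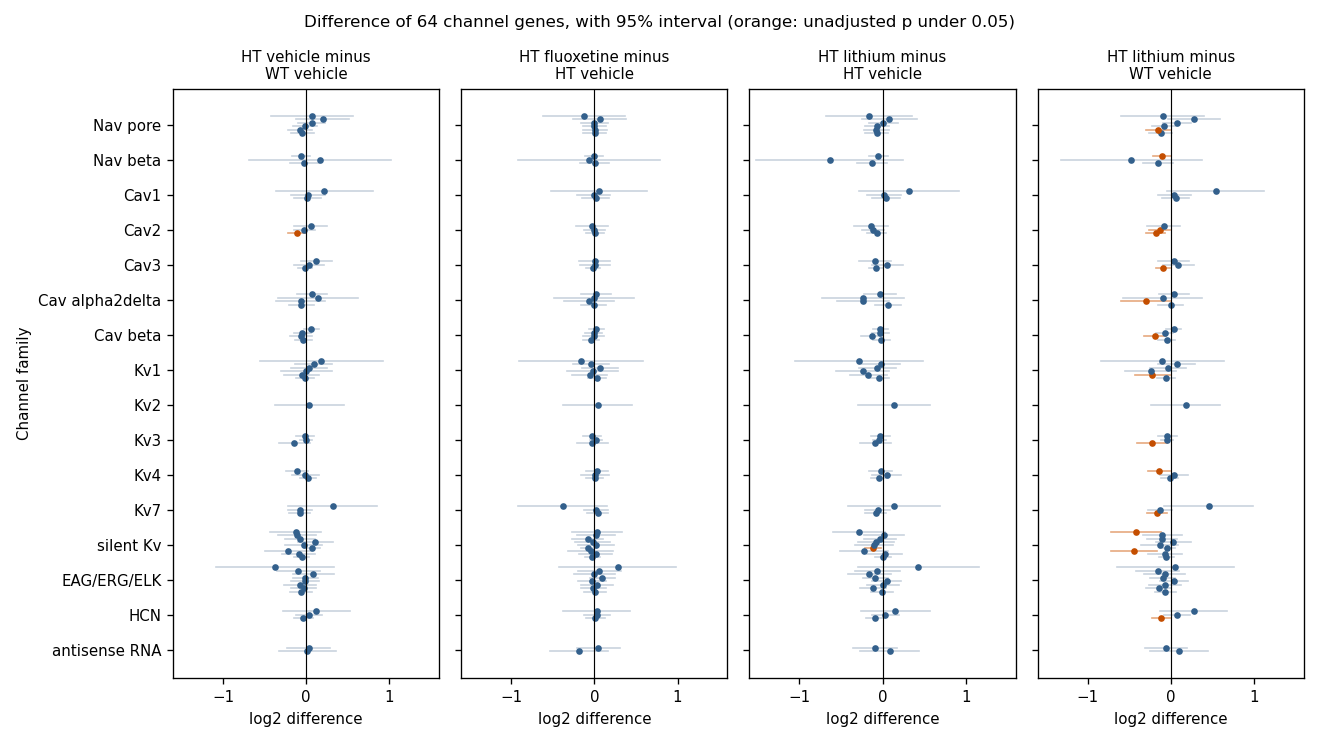
Log2 difference of 64 of the 71 genes (points) with its 95% interval (lines) in 4 comparisons, by channel family, orange where the unadjusted p was under 0.05. Most points lie near 0. In HT lithium against WT vehicle mice 14 of the genes drawn are orange, all lower.

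Fluoxetine in HT mice, compared with vehicle in HT mice, gave 0 calls in either direction among the 71 genes. Of all genes 0.0357% were called higher and 0% lower. There were also 0 channel genes at an unadjusted p under 0.05, beside 1.68% higher and 0.951% lower among all genes, and edgeR and DESeq2 called 0. The median log2 difference was 0.00 over channel genes, with 37 positive and 34 negative. The smallest p belonged to Kcns2, a silent Kv subunit, with 966, 1049 and 1117 at the lowest, median and highest in HT fluoxetine, against 1012, 1091 and 1197 in HT vehicle libraries (log2 difference -0.07, SE 0.0447, limma adjusted p = 1). Kcnq1, the Kv7 form of heart and inner ear (-0.38), Kcnd3os (-0.19), the silent subunit Kcns3 (-0.08) and Cacnb3 (-0.04) had the next smallest p on the lower side, and the ELK subunits Kcnh8 (0.28) and Kcnh4 (0.10), Kcna3, a Kv1 subunit also of T cells (0.07), and Kcnq3 (0.04) were among those on the higher side. Kcnq1, Kcnd3os and Kcnh8 rest on few reads. Intervals lay within 1.5-fold for 64 genes and within 1.25-fold for 56.

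Lithium in HT mice, compared with vehicle in HT mice, also gave 0 calls among the channel genes, beside 0.0892% of all genes called higher and 0% lower. EdgeR and DESeq2 called 0. At an unadjusted p under 0.05, 0 were higher and 2 (2.82%) lower, beside 3.41% and 2.31% of all genes. More of them leaned down than up: 51 of 71 differences were negative, with a median of -0.05 on the log2 scale, where 52.2% of all genes were negative and their median was 0.00. Of the 2 genes with an unadjusted p under 0.05, Kcns2 had 851, 998 and 1281 in HT lithium, against 1012, 1091 and 1197 in HT vehicle libraries, with overlapping ranges (log2 difference -0.11, limma adjusted p = 0.858). Kcng3, a silent subunit (-0.29), Cacnb1, an intracellular calcium channel subunit (-0.12), and Cacna1i, a T-type pore (-0.08), had the next smallest p on the lower side.

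By family, all 6 Kv1 genes (median log2 difference -0.12), all 4 calcium channel beta subunits (-0.03), all 4 sodium channel beta subunits (-0.09) and all 3 Cav2 pores (-0.11) had a negative difference under lithium, none of them called. All 3 Cav1 pores were positive (0.05). The 5 genes with the smallest p on the higher side were Kcnh8 (0.43), Cacna1s (0.32), Hcn4 (0.15), the Kv2 pore Kcnb2 (0.14) and Cacna2d1 (0.06). Kcnh8 and Cacna1s were positive in both sexes. Hcn4, Kcnb2 and Cacna2d1 were negative in females (-0.10, -0.28 and -0.04) and positive in males (0.41, 0.56 and 0.16). Hcn4, Kcnb2 and Cacna2d1 turned negative once both marker scores were in the fit (-0.1075, -0.1416 and -0.0025). Scn4b, at -0.64, had an interval from 0.349-fold to 1.18-fold.

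In the HT lithium group 2 libraries stood apart. The channel share of all counts was 0.766% in HT lithium female 1 and 0.775% in HT lithium male 4, and 0.828% to 0.864% in the other 5 HT lithium libraries. It was 0.83% to 0.876% in HT fluoxetine, 0.816% to 0.878% in HT vehicle and 0.832% to 0.881% in WT vehicle libraries. HT lithium male 4 also had the highest summed olfactory bulb (22547), meningeal (12302) and thalamic markers (6577) and the lowest excitatory neuron markers (142259) of all libraries. HT vehicle female 1 had 20525 for the bulb markers and the lowest channel share of its group, 0.816%. Summed bulb markers were 3724 to 22547 in HT lithium, against 3593 to 20525 in HT vehicle and 3154 to 10968 in WT vehicle libraries. Summed striatal markers were 10812 to 27165 in HT lithium, against 11299 to 41963 in HT vehicle and 11065 to 40407 in WT vehicle libraries. With both scores as covariates 57 of 71 lithium differences were negative, with a median of -0.04, and for 61 genes the interval lay within 1.25-fold, against 49 without the scores. Without HT lithium female 1 and male 4 the median lithium difference was -0.01, with 1 higher and 0 lower genes at an unadjusted p under 0.05. It was -0.03 without female 1 alone and -0.02 without male 4 alone. The count of 2 lower genes was 0 without HT lithium female 1, 5 without HT lithium female 2 or male 1, 7 without HT lithium male 2, and 10, 1 and 4 without HT vehicle female 1, female 3 and male 2.

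Fluoxetine and lithium share the HT vehicle libraries as control, so they were also set directly against each other in HT mice. Of the channel genes, 0 were called between fluoxetine and lithium, as were 0% of all genes in either direction, and edgeR and DESeq2 called 0 of them. At an unadjusted p under 0.05, 4 (5.63%) were higher under fluoxetine and 0 lower, beside 3.73% and 3.13% of all genes. Kcnh4, Kcng3 and Kcnq3 were among them. The count of 4 was 1 without HT lithium female 1, 2 without HT lithium male 4 or without HT fluoxetine female 2 or 3, 9 without HT lithium female 2, 8 without HT lithium male 2 and 7 without HT lithium female 3. The median over the 71 genes was 0.06, and 0.00 without HT lithium female 1 and male 4. Kcnq3 had 6228, 6672 and 7477 in HT fluoxetine, against 5012, 6391 and 6808 in HT lithium libraries, with overlapping ranges (log2 difference 0.13, limma adjusted p = 0.726). Kcnh4, an ELK subunit, differed by 0.18, Kcng3 by 0.32 and Hcn2 by 0.10. On the other side were Kcnq1 (-0.52), Kcnd3os (-0.27), Cacna1s (-0.26), Kcnh2, the ERG channel (-0.08), and Cacna2d1 (-0.07).

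Drug-treated HT mice were also set against WT vehicle mice, which are the same WT libraries as in the genotype comparison. Genotype and drug both differ in these comparisons, so their parts in a difference cannot be told apart. HT fluoxetine against WT vehicle mice gave 0 called channel genes with limma, edgeR and DESeq2, beside 1.24% of all genes higher and 0.25% lower, and 1 higher gene at an unadjusted p under 0.05 and 0 lower, beside 6.89% higher and 5.24% lower among all genes. When 1 library was left out the counts ran from 0 to 2 higher and 0 to 5 lower, with 2 and 5 without HT fluoxetine female 3, 0 and 4 without WT vehicle female 2, and 0 and 2 without HT fluoxetine male 3 or WT vehicle female 1.

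HT lithium against WT vehicle mice also gave 0 called channel genes with limma and edgeR and 3 lower with DESeq2, beside 1.4% of all genes higher and 0.577% lower. An unadjusted p under 0.05 was found for 17 of 71 genes (23.9%) on the lower side and 0 on the higher, where 8.62% of all genes were lower and 9.07% higher. The median log2 difference was -0.07 over the channel genes and 0.00 over all genes. Cacna1a and Kcng1 had limma adjusted p of 0.0741 and 0.0875, short of the threshold. Leaving out 1 library brought calls in 4 cases: 1 without HT lithium female 2, 2 without HT lithium male 1, 3 without HT lithium male 2, and 2 without WT vehicle female 2.

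Cacna1a had 5754, 6890 and 7314 in HT lithium, against 7091, 7615 and 8264 in WT vehicle libraries (0.881-fold, 0.816 to 0.951). Kcng1 had 671, 1253 and 1470 in HT lithium, against 1205, 1697 and 1877 in WT vehicle libraries (0.737-fold, 0.61 to 0.891). The ranges of both genes overlapped.

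The others named here, chosen after their values had been seen, came from every channel class. They were the sodium channel pore Scn8a (-0.15) and beta subunit Scn3b (-0.11), and the N-type pore Cacna1b (-0.14), T-type pore Cacna1i (-0.10), beta subunit Cacnb1 (-0.19) and alpha2delta subunit Cacna2d3 (-0.30) of calcium channels. Among potassium channels they were the M-current subunit Kcnq3 (-0.16), Kcnc4 of Kv3 (-0.23), Kcna6 of Kv1 (-0.22), Kcnd1 of Kv4 (-0.14) and the silent subunit Kcng3 (-0.42). Hcn2 (-0.12) was among them. Without HT lithium male 4 the count of 17 was 8, without HT lithium female 1 it was 7, and without both it was 4 lower and 2 higher, a choice made after the data had been seen. Without WT vehicle female 1, female 3, female 4, male 1 or male 3 it was 9, 9, 11, 10 and 9. It rose to 21 without HT lithium female 2 or male 2 and to 19 without WT vehicle female 2. Over all single libraries left out it ran from 7 to 21. With edgeR it was 13, and with only the compared groups in the fit it was 12 lower and 1 higher. With both marker scores as covariates it was 13 lower and 2 higher, with a median difference of -0.06.

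**Figure D4:**
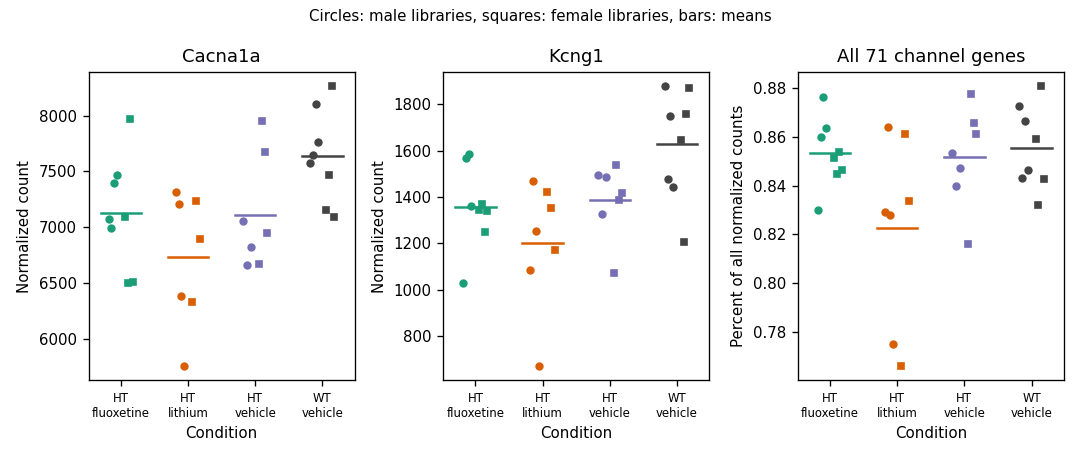
Normalized counts of Cacna1a and Kcng1 and the share of all normalized counts held by the 71 channel genes (percent), with 1 point per library, circles for males and squares for females, and bars for condition means. HT lithium libraries lie lowest on average in all 3 panels, and HT lithium male 4 is the lowest point for both genes.

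Males and females were compared over all conditions. Kcns2 (chromosome 15, 34837355 to 34843407) was the sole channel gene called, lower in males, so that 1 of 71 (1.41%) was called lower and 0 higher, beside 0.0654% and 0.149% of all genes. An unadjusted p under 0.05 was reached by Kcns2 and by 1 higher gene, the alpha2delta subunit Cacna2d4, beside 3.77% of all genes lower and 4.27% higher. Kcns2 had 851 at the lowest, a median of 1005 and 1091 at the highest in 15 male libraries, against 998, 1092 and 1281 in 15 female libraries. The log2 difference was -0.15 (SE 0.0316, limma adjusted p = 0.0426), or 0.903-fold (0.864 to 0.945).

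In HT fluoxetine mice Kcns2 was 966 to 1041 in males, against 1058 to 1117 in females, and in WT vehicle mice 957 to 1041 in males, against 1060 to 1149 in females, without overlap in either. In HT lithium mice it was 851 to 1011 in males, against 998 to 1281 in females, and in HT vehicle mice 1065 to 1091 in males, against 1012 to 1197 in females, with overlap in both. The call was close to the threshold: it was lost when any 1 of 22 of the 30 libraries was left out, with adjusted p up to 0.0843 (without HT vehicle female 2). EdgeR (adjusted p = 0.0342) and DESeq2 (0.00376) also called it.

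**Figure D5:**
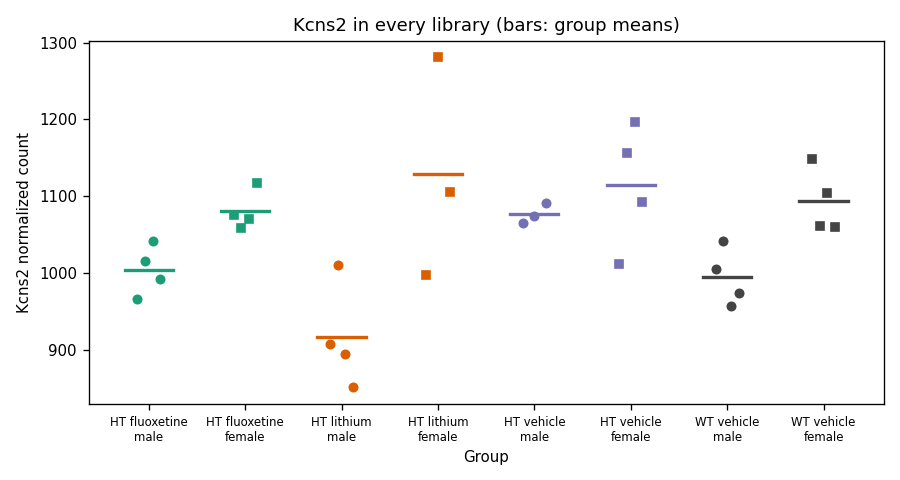
Kcns2 normalized counts in every library (points) with group means (bars), males as circles left of females as squares in each condition. Male means lie below female means in all 4 conditions, and the ranges do not overlap in HT fluoxetine and WT vehicle mice.

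Whether genotype or drug acted differently in the 2 sexes was tested as the male effect minus the female effect. Limma called 0 of the 71 channel genes for genotype, fluoxetine or lithium in either direction, as it did 0% of all genes, and edgeR and DESeq2 also called 0. For genotype, 0 genes were higher and 1 (Kcnq1ot1) lower at an unadjusted p under 0.05, beside 0.666% and 1.38% of all genes. The lower count was 0 or 1 when 1 library was left out. For fluoxetine the counts were 4 higher (Cacna1g, Cacna2d1, Kcnh7 and Cacna1d) and 0 lower, beside 3.05% and 2.91% of all genes. These ran from 1 to 9 higher and 0 to 5 lower when 1 library was left out, with 9 and 5 without HT fluoxetine female 1, 7 and 4 without HT vehicle female 4, 7 and 3 without HT vehicle male 2, and 1 and 0 without HT fluoxetine female 4 or HT vehicle male 3. For lithium they were 3 higher (Kcnh5, Cacna1d and Kcnc1) and 1 lower, beside 5.36% and 4.65%. These ran from 0 to 10 higher and 0 to 4 lower when 1 library was left out, with 10 and 4 without HT lithium female 3, 7 and 4 without HT vehicle female 4, 7 and 3 without HT vehicle male 2, 3 and 4 without HT lithium male 2, and 0 and 1 without HT lithium female 1. With all libraries the lower one was Kcns2, with a log2 difference of -0.25 and a limma adjusted p of 0.47.

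Partner genes outside the channel list were examined in the same fits. Of 34 tested auxiliary subunits and partners, among them Kcnab, Kcnip and Kcne subunits, ankyrins and Fgf11 to Fgf14, 0 were called for genotype, fluoxetine, lithium or between the drugs, and 0 to 2 had an unadjusted p under 0.05. Among all genes, 0.951% to 4.12% reached this level in each direction of these comparisons. The median lithium difference of the 34 was -0.05, beside 0.00 for all genes. In HT lithium against WT vehicle mice an unadjusted p under 0.05 was reached by 2 of the 34 on the higher side and 8 on the lower, beside 9.07% and 8.62% of all genes, with a median log2 difference of -0.09. Of these, 1 was called higher, beside 1.4% of all genes, and 0 lower. It was Kcne4, an inhibitory beta subunit of Kv channels. It had 69.9, 105 and 135 in HT lithium, against 50.2, 61.8 and 73.4 in WT vehicle libraries, which overlap at their edge (log2 difference 0.65, SE 0.151, limma adjusted p = 0.019). In HT vehicle libraries Kcne4 had 49.3, 56.6 and 94.1, overlapping the HT lithium range. The call was lost when HT lithium female 1, HT lithium female 3, HT lithium male 3 or WT vehicle female 1 was left out, with limma adjusted p of 0.0548, 0.0831, 0.0506 and 0.0513 in that order. It was also lost without HT lithium female 1 and male 4 together (limma adjusted p = 0.097).

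Of 33 other potassium, leak, calcium-activated and related channel genes, such as Kcnj, Kcnk, Kcnn and Cacng genes, 0 were called in those 4 comparisons or against WT vehicle mice. Their medians were -0.03 for genotype, 0.00 for fluoxetine and -0.03 for lithium. An unadjusted p under 0.05 was reached by 0 to 6 of them. The 6 were all lower, in HT lithium against WT vehicle mice, beside 8.62% of all genes. For lithium 0 were higher and 3 lower, beside 3.41% and 2.31%. Between the drugs 3 were higher under fluoxetine and 0 lower, beside 3.73% and 3.13%. HT fluoxetine against WT vehicle mice had 1 higher and 2 lower, beside 6.89% and 5.24%. Of the 71 channel genes, 30 have a human counterpart mutated in epileptic encephalopathy or neurodevelopmental disorder. Of these 0 were called for genotype, fluoxetine or lithium, with medians of -0.02, 0.00 and -0.06 in that order. In each of the 3, 0 or 1 had an unadjusted p under 0.05, beside 0.951% to 4.12% of all genes in each direction. In HT lithium against WT vehicle mice 8 of the 30 had an unadjusted p under 0.05, all lower, beside 8.62% of all genes. They are among the 17 genes above, a count that was 4 lower and 2 higher without HT lithium female 1 and male 4.

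Kcnq1ot1, the long antisense RNA of the Kcnq1 locus, ran from 732 to 1637 normalized counts and was called in no comparison. Kcnd3os had 15.6 to 38.1. Exons of 21 of the 71 genes overlap another gene on the opposite strand, by 39.6% of exon length in Kcna6, 20% in Cacna1s, 17.1% in Hcn3 and 16% in Cacnb4. The library kit keeps strand, but whether counting used it is not stated, so reads of such pairs cannot be told apart here. Low values such as those of Kcnq1 (13.7 to 55.2) are uncertain, although it overlaps Kcnq1ot1 by only 2.96% of its exon length.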

How the data were processed

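Prefrontal cortex mRNA of 30 libraries was sequenced with a stranded kit, per the labels' protocols. The deposited values are a signal, each library's gene counts over a single size factor. The submitters' processing notes name Salmon 0.11.2, DESeq2 1.19.11, R 3.6.0 and the GRCm38 build, without their order. Multiplying each library by its step gave whole reads for 100% of values, within 0.01.

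Genes with a mean of at least 10 were tested with limma 3.58.1 (trend, robust) in R 4.3.3 on log2(value + 1), with a mean for each of 8 groups of genotype, treatment and sex and 22 residual degrees of freedom. Fold changes are on that scale, which understates those of low genes. Benjamini-Hochberg adjustment of p-values ran over all 16824 genes, with calls at 0.05. EdgeR 4.0.16 and DESeq2 1.42.0 were run on recovered reads as alternatives. The fits were tested on simulated data. GENCODE M21 named 18227 of 18240 gene IDs, and promoter sequences are from RefSeq.

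Replicate libraries of a group differed by more than sampling noise in all 42 pairs (chi-square per degree of freedom 4.57 to 30.1), so none was merged. Members and lists were chosen with earlier results of these data known. Named genes were the highest per kb of each family, those called, the 5 with the smallest p in each direction of the 4 main comparisons and of both marker scores (the scores added after seeing the data), those nearest the level of 10, and Kcnq1ot1. Results for 7 of the 71 genes are not reported here by name.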

Additional observations from a re-analysis of the deposited data

Results flagged for a closer look

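In groups of 4 libraries of 1 sex, 44 named genes gave 264 groups, and 19 of them (7.2%) held a library whose gap to the others passed Dixon's 95% critical value, where chance flags about 1 in 20. Values are normalized counts, with the range of the other 3 libraries of the group after them.

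Among calcium channel genes, Cacna1d had 3195 in HT vehicle female 1 (2572 to 2620) and 2868 in WT vehicle female 2 (2407 to 2471). Cacna1s had 83.4 in HT vehicle female 1 (25.8 to 35.1), Cacna1h 3116 in HT lithium male 4 (2501 to 2543) and Cacna2d2 2195 in HT vehicle female 4 (1189 to 1305). Cacnb2 had 1557 in HT fluoxetine male 3 (1418 to 1440) and Cacnb3 7826 in HT vehicle female 4 (8935 to 9133).

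Scn9a had 123 in HT vehicle female 4 (57.1 to 66.9). Hcn4 had 493 in HT fluoxetine female 1 (281 to 309).

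Among potassium channel genes of HT mice, Kcnc4 had 2900 in HT fluoxetine female 3 (2147 to 2183) and Kcng3 had 68 in HT vehicle female 1 (104 to 109). In HT lithium males, Kcnh2 had 1348 in male 4 (998 to 1057), Kcnq3 had 5012 in male 4 (6391 to 6579) and Kcnh4 had 1019 in male 1 (691 to 731). Among WT vehicle mice, Kcna3 had 283 in male 1 (307 to 309), Kcnd3os 36.7 in male 1 (22.2 to 24) and Kcnf1 6755 in male 4 (6486 to 6523). In WT vehicle females, Kcng2 had 213 in female 3 (149 to 153) and Kcnb2 1598 in female 2 (988 to 1038).

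HT lithium male 4 and HT vehicle female 1 had the 2 highest olfactory bulb marker sums (22547 and 20525), and HT vehicle female 4 the highest striatal sum of its group (41963). The part of these markers in single values was not tested.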

How the results depend on the processing

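Beside the values with alternatives above, other pseudocounts, filters, TMM scaling, edgeR, DESeq2, a fit of the compared groups alone and leaving out libraries were tried, the last fit not being applicable to sex. For HT lithium against WT vehicle mice, called channel genes numbered 3 with DESeq2 (Cacna1a and Kcng1 among them), 2 with the replicate block (Cacna1a among them) and 0 to 3 when 1 library was left out, against 0. For HT fluoxetine against WT vehicle mice they numbered 2 (higher, Scn7a among them) with both marker scores as covariates. The sex count was 0 to 1 when 1 library was left out. Under lithium, Cacna2d1 (-0.0025), Hcn4 (-0.1075) and Kcnb2 (-0.1416) reversed sign with both scores as covariates, and the cause was not tested. Same-numbered libraries correlated between -0.345 and 0.278 for genotype, -0.43 and 0.446 for fluoxetine and -0.204 and 0.084 for lithium. These values have mixed signs and rest on single pairs, so they cannot show whether a shared number marks anything. The replicate block changed no other count of called genes by genotype, drug or sex. It left 17 genes called higher and 23 lower with the bulb score, against 18 and 31. At an unadjusted p under 0.05, genotype had 0 higher and 3 lower genes with the block, against 1 and 1. HT fluoxetine against HT lithium had 6 and 1, against 4 and 0, and HT fluoxetine against WT vehicle mice 1 and 2, against 1 and 0. The spread within groups, wide for Scn4b, limits what can be detected.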
